A study of Drosophila melanogaster with 6 samples.

Results

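The 10 genes described here make, fold and switch off rhodopsin, the light-sensing pigment of photoreceptors. They were taken by symbol from a table of 11836 genes and comprise the opsin genes ninaE and Rh2, the chaperone genes ninaA and Cnx99A, the receptor kinase genes Gprk1 and Gprk2, the arrestin genes Arr1 and Arr2, the phosphatase gene rdgC and the myosin kinase gene ninaC. All 10 were found. Of these, 9 had a mean of at least 1 FPKM (fragments per kilobase of transcript, scaled to the size of the library), the minimum set for testing, and Gprk1 lay below it. Polyadenylated RNA was sequenced from whole heads of Drosophila melanogaster aged 2 days. There were 3 libraries of Prp31_P18 flies, which carry a mutation in Prp31 on both copies of the gene, and 3 libraries of control flies labelled w, with the genotype white. Every library pooled 50 heads. Prp31 encodes a factor of the splicing machinery, and the series was set up as a fly model of an inherited retinal degeneration of humans. The series covers males and females. The labels leave out the mix of sexes in each library, the lesion in the mutant allele and whether the mutants also carry white. They also leave out whether replicates came from separate cultures, so the p-values speak of the spread among these libraries, and that spread may be technical. A head holds brain, fat body, muscle and cuticle besides the eyes, so in these bulk samples fewer photoreceptors and less RNA per photoreceptor cannot be told apart.

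Fly rhodopsin is made in the endoplasmic reticulum, where calnexin and the cyclophilin NinaA, a prolyl isomerase, assist the folding of newly glycosylated opsin before it travels to the rhabdomere, the stack of light-sensing microvilli. Light turns rhodopsin into metarhodopsin, which keeps signalling until an arrestin binds to it. Receptor kinases phosphorylate metarhodopsin, and the calcium-dependent phosphatase RdgC removes the phosphates so that the pigment can be used again. Flies that lack NinaA or calnexin fail to mature the main opsin, and flies that lack arrestin, RdgC or NinaC show slow shut-off of the light response or degeneration of the retina.

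The depth of the libraries was read from the steps between low values. In single-exon genes shorter than 1500 bases with up to about 8 reads, 98.9% to 100% of the values lay within 0.05 of a whole number of reads, for totals of 23370000 to 24590000 reads in mutant libraries and 22670000 to 25740000 reads in control libraries. Prp31 had 13.5, 14.2 and 13.6 FPKM in the mutants and 13.83, 13.99 and 14.05 FPKM in the controls, which does not check the labels because the lesion is not given, and 224 of its exon bases also belong to CG7011 on the opposite strand. The w gene had 0.284, 0.373 and 0.524 FPKM in the mutants and 0.023, 0.015 and 0.046 FPKM in the controls. The groups did not overlap, at levels below 1 FPKM. Any difference of strain background goes with the Prp31 genotype in these libraries, so the 2 cannot be told apart in any comparison of the groups. The 14 photoreceptor markers, led by trp and Gbeta76C, were present in all libraries and summed to 2149 to 2628 FPKM in mutant and 2069 to 2718 FPKM in control heads. None of the 14 passed the test (limma over all 8465 tested genes, adjusted p under 0.05), 0 had an unadjusted p under 0.05, and their median log2 fold change was -0.01. Without control replicate 3 the median was -0.13 and 1 was called lower, where 26.1% of all genes were called in either direction. With the yolk protein level of each library as a covariate it was 0.41 and 3 were called higher, where 2.14% of all genes were. Of the markers of other tissues, all 8 head fat body genes had a log2 fold change above 0, and all 6 muscle genes had one below 0. Those of neurons, glia and lens-secreting and pigment cells had genes on either side of 0. Calls are read beside 3.53% of all tested genes called higher and 7.81% called lower. At an unadjusted p under 0.05, 689 of the 8465 tested genes were higher and 1625 lower in limma. Of 8 head fat body genes, led by Yp1 and Yp3, 1 passed as higher (to), and 7 were higher with an unadjusted p under 0.05. Their median log2 fold change was 1.81. The list summed to 17976 to 47787 FPKM in mutant and 3802 to 20617 FPKM in control heads. Of 6 muscle genes, led by Act57B and Mlc2, 4 fell, and all 6 were lower with an unadjusted p under 0.05. They summed to 1128 to 1508 FPKM in mutants and 1758 to 3361 FPKM in controls. Of 7 glial genes, led by Gs2 and alrm, 1 fell (alrm), and 2 were lower with an unadjusted p under 0.05. They summed to 526 to 597 FPKM in mutants and 585 to 785 FPKM in controls. Of 3 tested genes of lens-secreting and pigment cells, led by retinin and Cpr72Ec, 1 fell (Cry, FBgn0005664, the crystallin gene now named Crys). Of 10 neuronal genes, led by nSyb and Syt1, 0 passed limma, while 2 were lower with an unadjusted p below 0.05. The part of these marker differences in the results below was not tested. Control replicate 3 differed from control replicates 1 and 2. The transcripts of Yp1, Yp2 and Yp3, the yolk proteins of female fat body, summed to 20082, 17149 and 45658 FPKM in the mutants and to 3582, 3972 and 19399 FPKM in the controls, the last being replicate 3. Results are therefore also given without control replicate 3. It was the only control whose yolk protein sum lay within the range of the mutants. Without it the groups no longer overlap in that sum, so such a fit does not remove the yolk protein difference. The part of that difference in those fits was not tested.

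The level of the main opsin transcript was higher in every mutant library than in any control library, but the difference did not pass the test. ninaE (FBgn0002940; 3R, 19886255 to 19888206, build BDGP6) encodes the opsin of the outer photoreceptors. It had 15585, 15099 and 11886 FPKM in mutant replicates 1, 2 and 3, against 9763, 9201 and 11582 FPKM in control replicates 1, 2 and 3. The groups did not overlap, but mutant replicate 3 and control replicate 3 were close to each other. The means were 14190 ± 2010 FPKM in mutants and 10182 ± 1245 FPKM in controls (SD, n = 3 each). This came to 0.48 (SE 0.38) as a log2 fold change, or 1.39-fold with a 95% interval of 0.756 to 2.56 (limma, adjusted p = 0.444). Leaving out control replicate 3, after which the groups do not overlap in yolk protein level, gave 0.57, which passed (limma, adjusted p = 0.0247). Quantile normalization, which forces all libraries onto the same distribution and so levels the most abundant transcripts, left a log2 fold change of 0.046. Without a trend of variance on abundance the standard error was 0.13 and the adjusted p of limma 0.0677.

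Rh2 differed little among the libraries. It encodes the opsin of the ocelli, the simple eyes on top of the head (FBgn0003248; 3R, 18899423 to 18901019). It had 209.9, 211.2 and 191.5 FPKM in the mutants, against 204.3, 195.2 and 194.0 FPKM in the controls. The groups overlapped. The coefficient of variation was 5.39% in mutants and 2.85% in controls. The log2 fold change of 0.04 (SE 0.10) had a 95% interval of -0.18 to 0.27 (limma, adjusted p = 0.797). Changes of more than 1.21-fold upward lay outside that interval. The ocellar opsin transcript thus came to 1.35%, 1.40% and 1.61% of the ninaE transcript in mutant libraries and to 2.09%, 2.12% and 1.67% in control libraries, in FPKM. ninaE made up 88.5% to 89.2% of the summed FPKM of 7 opsin genes in mutants and 87.4% to 90.1% in controls. The sum of the inner photoreceptor opsins Rh3 to Rh6 was 1668, 1749 and 1296 FPKM in mutants and 1175, 1129 and 1075 FPKM in controls. This sum was higher in all mutant libraries, but its members did not move as a group. Rh6 had 548, 561 and 402 FPKM in mutants and 21.6, 22.1 and 21.2 FPKM in controls. Rh5 was lower in all mutants, with 199, 219 and 163 FPKM against 258, 258 and 266 FPKM in controls. It did not pass with all libraries at equal weight (limma, adjusted p = 0.0745). Rh3, the most abundant of the 4, had 733, 771 and 594 FPKM in mutants and 818, 775 and 710 FPKM in controls, with overlap.

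**Figure D1:**
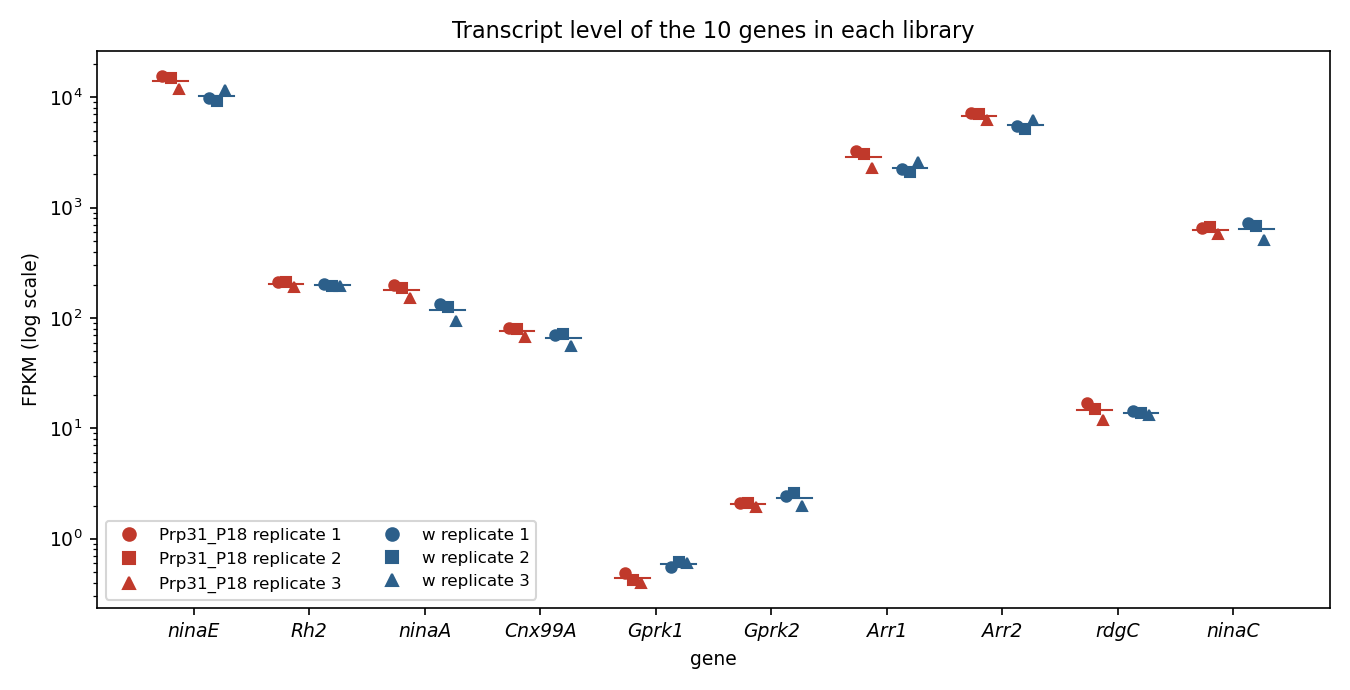
FPKM of the 10 genes (log axis) in each of the 3 Prp31_P18 and 3 w libraries, with a line at the mean of each group. ninaE, from 9201 to 15585 FPKM, stands at the top and Gprk1, from 0.401 to 0.611 FPKM, at the bottom, and only ninaE, ninaA and Gprk1 have groups that do not overlap.

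Of the 9 tested genes the chaperone gene ninaA had the largest log2 fold change with all libraries at equal weight; without control replicate 3 and with library weights that of ninaE was larger (0.57 and 0.58, against 0.46 and 0.49 for ninaA). The gene (FBgn0002936; 2L, 877302 to 878270) encodes the cyclophilin that the opsins of the outer photoreceptors and the ocelli need to leave the endoplasmic reticulum. It had 199.4, 187.1 and 151.2 FPKM in the mutants, against 132.7, 125.4 and 94.2 FPKM in the controls. All mutant libraries lay above all control libraries, and replicate 3 was the lowest of its group in both. The means were 179 ± 25.0 FPKM in mutants and 117 ± 20.5 FPKM in controls (SD, n = 3 each), a log2 fold change of 0.61 (SE 0.16) or 1.53-fold with a 95% interval of 1.17 to 1.99. The adjusted p of limma was 0.0545, just short of the threshold, and the unadjusted p was 0.00641. Under other scalings it passed in some, with 0.69 after median-ratio scaling (adjusted p = 0.0348) and 0.67 after quantile normalization (0.0416), and not with centring on photoreceptor markers, at 0.62 (0.0693). It passed without control replicate 3, at 0.46 (limma, adjusted p = 0.0316). With any other single library left out it did not pass, at 0.53 to 0.73 (limma, adjusted p of 0.0633 to 0.149). With the yolk protein level of each library as a covariate it was 1.01 (limma, adjusted p = 0.00261). That covariate goes with the group, at 12.6, 12.4 and 13.9 in mutants and 10.1, 10.2 and 12.6 in controls (mean log2). Its effect and that of the group are therefore poorly separated in 6 libraries. All 871 exon bases of ninaA also belong to CG15824 on the opposite strand, which had 0.056 to 0.09 FPKM in mutants and 0.063 to 0.116 FPKM in controls.

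Cnx99A encodes calnexin, the membrane-bound lectin of the endoplasmic reticulum that holds glycosylated proteins while they fold (FBgn0015622; 3R, 29315254 to 29319644). It had 81.0, 80.0 and 67.4 FPKM in the mutants, against 70.2, 71.0 and 55.9 FPKM in the controls. Mutant replicate 3 lay below control replicates 1 and 2, so the groups overlapped. On the log2 scale the difference was 0.21 (SE 0.12), with a 95% interval of -0.08 to 0.50 (limma, adjusted p = 0.307). It was 0.10 when control replicate 3 was left out. With the yolk protein covariate, which goes with the group, it was 0.50 and passed (limma, adjusted p = 0.0197).

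The receptor kinase genes had the lowest levels. Gprk1 encodes the kinase known to phosphorylate the main rhodopsin (FBgn0260798; 2R, 4322295 to 4471060). It had 0.489, 0.425 and 0.401 FPKM in the mutants, against 0.557, 0.611 and 0.599 FPKM in the controls. All mutant values lay below all control values. With the merged exon length of the reference annotation, which may not be that of the authors, these values stand for about 30.3, 25.4 and 23.6 reads in mutants and 31.8, 36.0 and 38.8 reads in controls, so that counting error alone is large. Gprk1 was not tested with the minimum of 1 FPKM. With no minimum the log2 fold change of FPKM + 1, a scale that shrinks changes at low levels, was -0.14 (SE 0.05; limma, adjusted p = 0.114), and the ratio of the mean FPKM was 0.744.

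Gprk2 encodes a kinase of the other receptor kinase branch, known in flies for its role in Hedgehog signalling (FBgn0261988; 3R, 31405245 to 31457873). It had 2.13, 2.09 and 1.96 FPKM in the mutants, against 2.46, 2.58 and 1.99 FPKM in the controls. Control replicate 3 fell among the mutants, and the groups overlapped. The difference was -0.12 (SE 0.10) in log2, with a 95% interval of -0.35 to 0.10 (limma, adjusted p = 0.430). Dropping control replicate 3 gave -0.20 (limma, adjusted p = 0.125), and with the yolk protein covariate it turned to 0.046 (limma, adjusted p = 0.883). The gene shares 182 exon bases with PNPase on the opposite strand.

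The arrestin transcripts were the most abundant of the shut-off genes and were, like ninaE, highest in mutant replicates 1 and 2, and control replicate 3 was the highest control. Arr2 encodes the major arrestin, which ends the signal of metarhodopsin (FBgn0000121; 3L, 8647261 to 8648936). It had 7213, 7094 and 6168 FPKM in the mutants, against 5456, 5195 and 6253 FPKM in the controls. Control replicate 3 lay above mutant replicate 3, and the groups overlapped by these libraries alone. Its log2 fold change was 0.28 (SE 0.29), with a 95% interval of -0.40 to 0.95 (limma, adjusted p = 0.565). Without control replicate 3 it was 0.35, with an adjusted p of 0.0501 in limma, and after quantile normalization it was 0.0089. Without a trend of variance on abundance the standard error of Arr2 was 0.10 and the 95% interval 0.036 to 0.52. The unadjusted p of limma was then 0.0299 and the adjusted p 0.138. Arr2 lies 6.51 Mb from Prp31 on 3L, within the span of Pex7 on the opposite strand but with no shared exon bases.

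Arr1 encodes the less abundant arrestin, known for carrying rhodopsin into endocytosis (FBgn0000120; 2L, 18078269 to 18081307). It had 3247, 3088 and 2297 FPKM in the mutants, against 2222, 2098 and 2567 FPKM in the controls. Mutant replicates 1 and 2 lay above every control, while mutant replicate 3 lay between control replicates 1 and 3. The log2 fold change was 0.31 (SE 0.24), with a 95% interval of -0.24 to 0.87 (limma, adjusted p = 0.424), and after quantile normalization it was 0.15. Without a trend of variance on abundance the standard error of Arr1 was 0.15 and the adjusted p of limma 0.218. Arr1 came to 45.0%, 43.5% and 37.2% of Arr2 in mutants and to 40.7%, 40.4% and 41.1% in controls. The log2 ratio of the arrestins differed by 0.04 between the groups (exact permutation test, two-sided, p = 0.7).

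rdgC encodes the rhodopsin phosphatase (FBgn0265959; 3L, 20248080 to 20265554). It had 16.8, 15.0 and 11.9 FPKM in the mutants, against 14.3, 13.7 and 13.3 FPKM in the controls. The mutants spanned the whole range of the controls on either side, with a coefficient of variation of 17.1% in mutants and 3.81% in controls. rdgC differed by 0.06 (SE 0.12) in log2, with a 95% interval of -0.22 to 0.34 (limma, adjusted p = 0.768), and it was -0.041 without mutant replicate 1. The gene lies 5.10 Mb from Prp31 on 3L.

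ninaC encodes a myosin of class III with a kinase domain that binds calmodulin in the rhabdomere and takes part in shut-off (FBgn0002938; 2L, 7377702 to 7384344). It had 656, 666 and 573 FPKM in the mutants, against 723, 678 and 510 FPKM in the controls. Control replicate 3 was the lowest library of all and control replicate 1 the highest. The means were 632 ± 51.3 FPKM in mutants and 637 ± 112 FPKM in controls (SD, n = 3 each). The difference in log2 was 0.0012 (SE 0.17), with a 95% interval of -0.41 to 0.41 (limma, adjusted p = 0.998). Its direction was not stable. It was -0.15 without control replicate 3, -0.16 after quantile normalization, -0.12 with library weights and 0.36 with the yolk protein covariate, none of which passed limma.

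**Figure D2:**
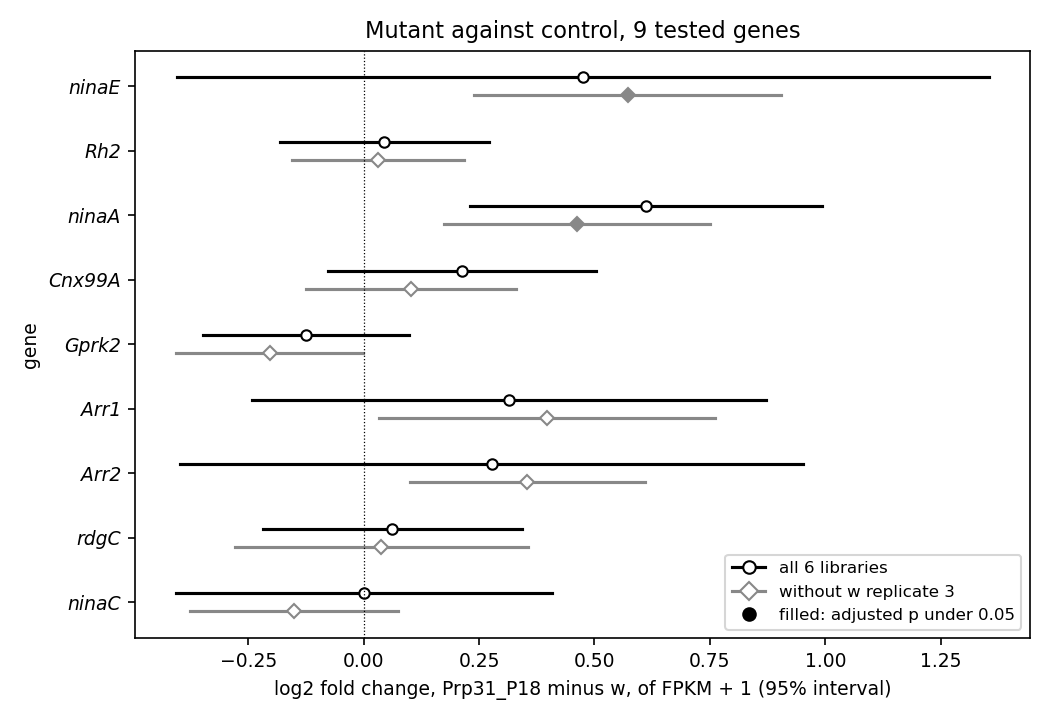
Log2 fold change of the 9 tested genes (x axis, Prp31_P18 minus w, FPKM + 1) with 95% intervals from limma, with all 6 libraries and without w replicate 3. With all libraries 0 genes pass; without that control ninaE (0.57) and ninaA (0.46) pass, and the interval of ninaE is narrower.

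None of the 9 tested genes passed limma with all libraries, where 11.3% of all 8465 tested genes did, 3.53% as higher and 7.81% as lower. ninaA was the 1 gene with an unadjusted p under 0.05, where 689 of all 8465 tested genes were higher and 1625 lower at that p. Of the 9, 8 had a log2 fold change above 0, with a median of 0.21 beside -0.066 over all genes tested. As none of the 9 passed and all were read from the same 6 libraries, the common sign is a description only. The groups did not overlap for ninaE and ninaA as higher, where 9.46% of the tested genes had the mutants higher without overlap, and for Gprk1 as lower, where 21.8% of the tested genes had the mutants lower. These were 3 of 10, where 31.2% of the tested genes had no overlap in either direction. Without control replicate 3, 2 of 9 were called, both higher, where 9.93% of the genes tested were called as higher and 26.1% in either direction. With library weights 1 of 9 was called, ninaA (0.49, limma, adjusted p = 0.0076), where 39% of all genes were called, 13.3% as higher, and ninaE had an adjusted p of 0.0501 in that fit. ninaA was also the 1 gene called under median-ratio scaling, where 9.62% of all genes were called and 4.25% as higher. The same was so under quantile normalization and the replicate block, where 4.54% and 4.8% of all genes were called as higher. With the yolk protein covariate ninaA and Cnx99A were called, where 5.8% of all genes were called and 2.14% as higher.

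The order of the levels was the same in 6 of 6 libraries. From high to low in FPKM it was ninaE, Arr2, Arr1, ninaC, Rh2, ninaA, Cnx99A, rdgC, Gprk2 and Gprk1. The neighbours Rh2 and ninaA were closest. Their FPKM ranges overlapped in the mutants (191.5 to 211.2 for Rh2 and 151.2 to 199.4 for ninaA) and were apart in the controls (194.0 to 204.3 for Rh2 and 94.2 to 132.7 for ninaA). No other neighbours overlapped over the 6 libraries. ninaE ranked between the first and the third most abundant transcript of the table in all libraries, Arr2 between ranks 3 and 7, and Arr1 between ranks 9 and 15. Together the 10 genes took 7.35%, 6.90% and 5.30% of the summed FPKM in mutants and 5.22%, 5.04% and 5.51% in controls.

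Ratios within a library do not depend on the total of that library, so they were compared next. Against ninaE, 6 of the 9 other genes had ratios that were lower in all mutants than in all controls, namely Rh2, Gprk1, Gprk2, Arr1, Arr2 and rdgC. The same held for 73.6% of all other genes tested, and 1.41% had a ratio that was higher in all mutants, so the count is near the background and not a result about these genes. The ratio Arr2 to ninaE was 46.3%, 47.0% and 51.9% in mutants and 55.9%, 56.5% and 54.0% in controls (log2 difference -0.20). Arr1 to ninaE was 20.8%, 20.4% and 19.3% in mutants and 22.8%, 22.8% and 22.2% in controls (log2 difference -0.16). These arrestin differences were the smallest of the 6. The largest were those of Gprk1 (-0.62) and Gprk2 (-0.60), on the log2(FPKM + 1) scale. Gprk1 lay below 1 FPKM, so the added 1 weighs on its ratio and ties it to the library total. At pseudocounts of 0.5 and 0.1 the differences were -0.69 and -0.83 for Gprk1 and -0.62 and -0.65 for Gprk2. An exact permutation test of 3 against 3 cannot give a p under 0.1, which each of the 6 had (two-sided, 0.171 after adjustment over 12 ratios), so none could pass.

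The ratios of the chaperones and ninaC to ninaE overlapped between the groups, with control replicate 3 away from control replicates 1 and 2. ninaA came to 1.28%, 1.24% and 1.27% of ninaE in mutants and to 1.36%, 1.36% and 0.813% in controls. Mutant values lay close together, and the controls fell on either side of them. The log2 difference was 0.14 (exact permutation, p = 1) and turned to -0.11 without control replicate 3. Cnx99A came to 0.520%, 0.530% and 0.567% of ninaE in mutants and to 0.719%, 0.772% and 0.483% in controls (exact permutation, p = 0.4). ninaC came to 4.21%, 4.41% and 4.82% in mutants and to 7.40%, 7.37% and 4.40% in controls (log2 difference -0.47, exact permutation, p = 0.3). In ninaC and Cnx99A control replicate 3 lay with or below the mutants and away from its own group.

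**Figure D3:**
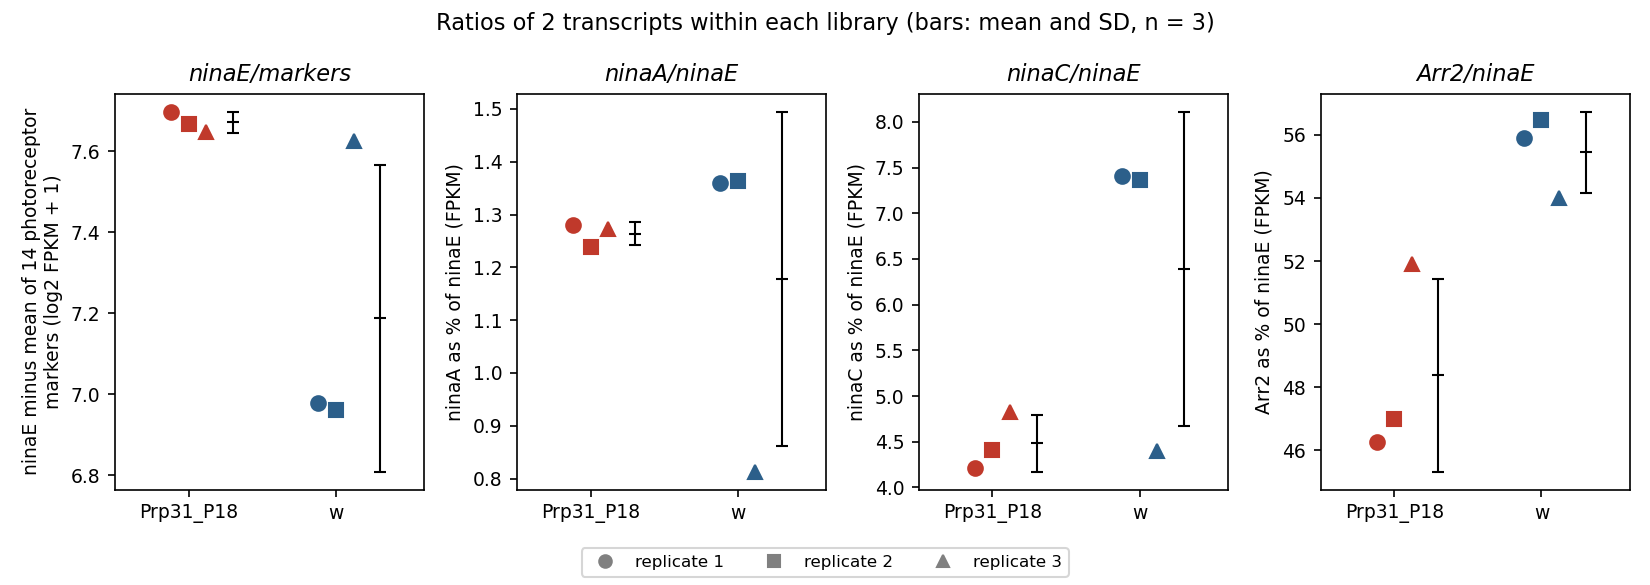
Ratios of 2 transcripts in each library, with mean and SD at the right of each group (n = 3). From the left are ninaE against the mean of 14 photoreceptor markers (difference in log2 FPKM + 1) and ninaA, ninaC and Arr2 as a percentage of ninaE in FPKM. Control replicate 3 is at 7.62, 0.813%, 4.40% and 54.0%, apart from control replicates 1 and 2 in the first 3 panels.

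Measured against other photoreceptor transcripts, ninaE stood higher in every mutant library than in any control library, though only slightly above control replicate 3. The log2 difference between ninaE and the mean of the 14 markers was 7.70, 7.67 and 7.65 in mutants and 6.98, 6.96 and 7.62 in controls. Control replicate 3 was thus next to the mutants and far above control replicates 1 and 2. The difference between the group means was 0.48, and 0.70 without control replicate 3. For all libraries the exact permutation test gave p = 0.1 (two-sided, 0.171 after adjustment over 12 ratios). That is the smallest p that 3 against 3 allows, so the difference could not pass. Centring every library on these markers moves the log2 fold change of every gene by the same amount. That of ninaE is then the same 0.48 as the difference above and not a further comparison. With this centring ninaA had 0.62, and 0 of the 9 tested genes passed limma.

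Replicate 3 lay apart in both groups. In mutants it was the lowest library for 10 of 10 genes, with ratios to the mean of replicates 1 and 2 between 0.725 for Arr1 and 0.928 for Gprk2. The photoreceptor markers were lowest there in 12 of 14 cases. In controls replicate 3 was above replicates 1 and 2 for ninaE (1.22 times their mean), Arr1 (1.19) and Arr2 (1.17), and below them for 6 genes, down to 0.728 for ninaC and 0.730 for ninaA. The photoreceptor markers were lowest in that library in 12 of 14 cases too. ninaE and the arrestins were thus above their level in control replicates 1 and 2 in a control library in which most photoreceptor markers were below theirs, though ninaE stayed under every mutant library. The yolk protein transcripts were at their highest in replicate 3 of either group, and the part of that difference in the levels of the 10 genes was not tested.

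**Figure D4:**
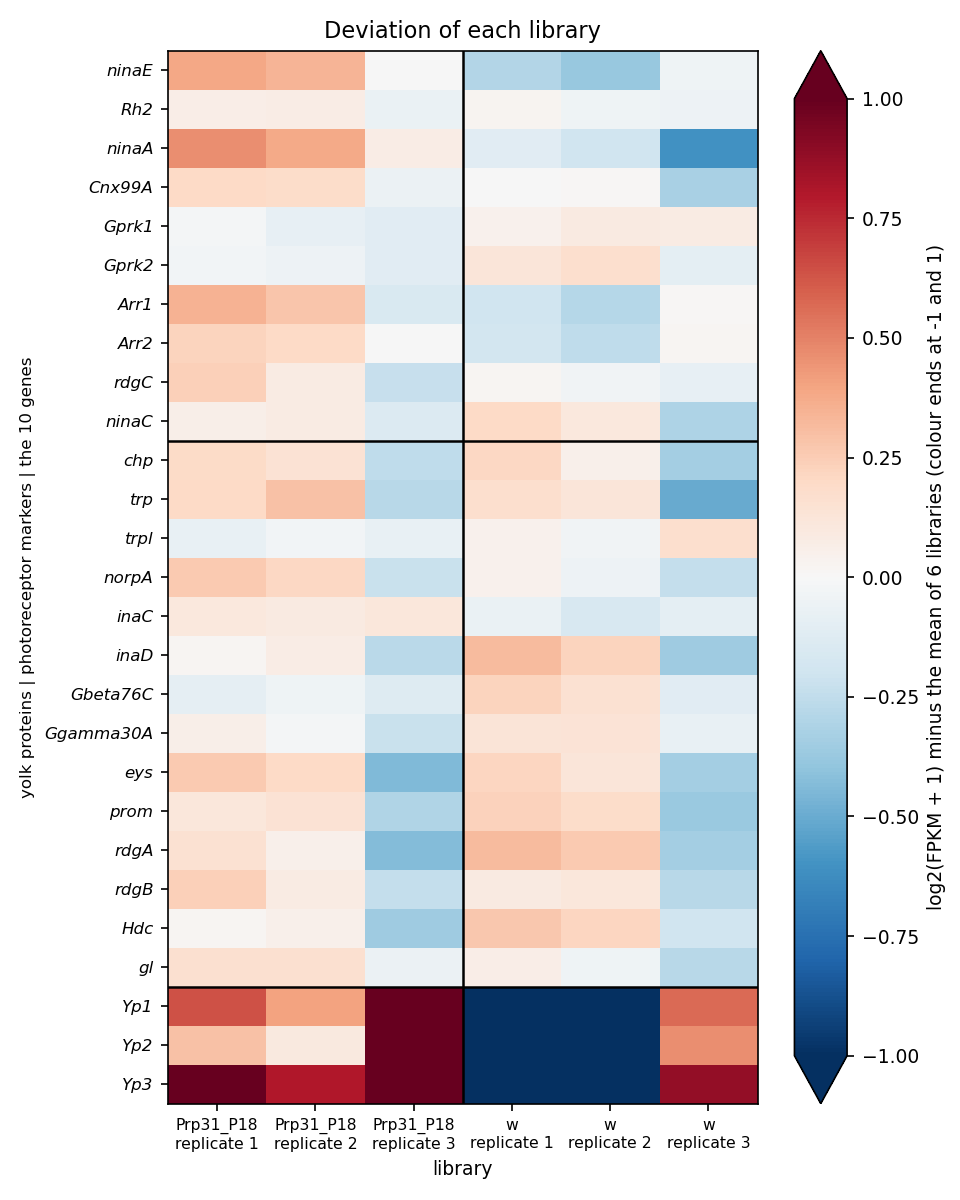
Deviation of log2(FPKM + 1) from the mean of the 6 libraries for the 10 genes, the 14 photoreceptor markers and the 3 yolk protein genes, with mutant libraries to the left of control libraries. In w replicate 3 ninaE (-0.04), Arr1 (0.01) and Arr2 (0.02) are above w replicates 1 and 2, while ninaA (-0.61), ninaC (-0.30) and trp (-0.50) are below them.

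Over 4270 genes that averaged 10 FPKM or more, those most like ninaE over the 6 libraries were Lk6, Crz, CG17124, Arr1 and ytr. Likeness was the root mean square difference of log2(FPKM + 1) values, each centred on the mean of its gene, and was 0.075 for Lk6 and 0.089 for ytr. Arr1 was in place 4 (0.088) and Arr2 in place 10 (0.113). The other members with such a mean were far down the order, from rdgC at place 626 (0.241) to ninaC at place 2518 (0.348). All these genes were read from the same 6 libraries, so this is a description without a test.

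Genes around the 10 in the same pathway were read from the same fit. Among the 5 other opsin genes Rh6 and Rh4 rose, by 4.46 and 1.17 in log2 (limma, with 3.23e-06 and 0.00288 as adjusted p), and 3 did not pass. Of all tested genes 3.53% were called higher. Rh5 passed as lower without control replicate 3 (-0.42, limma, adjusted p = 0.0451), where 26.1% of all genes were called. It also did so with library weights (-0.34, limma, adjusted p = 0.0242), where 39% were called. Of 24 other tested genes of opsin folding, glycan trimming and degradation in the endoplasmic reticulum, 1 rose, 1 fell and 22 did not pass, beside 11.3% of all tested genes called, with a median log2 fold change of 0.02 beside -0.066 over all genes. CG3501, a subunit of the membrane protein insertion complex EMC, had 25.9, 24.9 and 22.9 FPKM in mutants, against 17.5, 19.1 and 18.8 FPKM in controls (0.39, SE 0.08, limma, adjusted p = 0.0182). prtp, which encodes a protein of the disulfide isomerase family, had 29.2, 32.6 and 30.2 FPKM in mutants, against 38.9, 37.2 and 41.3 FPKM in controls (-0.34, SE 0.08, limma, adjusted p = 0.0343). The groups did not overlap in either gene. In these genes the fold held while the call did not. The call of CG3501 was lost without mutant replicates 1 or 2 or control replicates 1 or 2 (log2 fold changes of 0.36 to 0.42; limma, adjusted p between 0.056 and 0.0945), and that of prtp when any library but control replicate 3 was left out (log2 fold changes of -0.38 to -0.31; adjusted p of 0.0584 to 0.13) and after median-ratio scaling (-0.27; 0.0912). Both calls were lost with the yolk protein covariate, at log2 fold changes of 0.42 and -0.39 (adjusted p of 0.074 and 0.0794). With centring on photoreceptor markers they were lost at 0.40 and -0.33 (0.312 and 0.532), with standard errors of 0.17 and 0.19.

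None of 16 trafficking genes was called by limma, and 0 had an unadjusted p under 0.05. Among all 8465 tested genes 689 reached that p as higher and 1625 as lower. The log2 fold changes of the 16 lay between -0.17 and 0.11. The most abundant were Rab1, a small GTPase of transport from the endoplasmic reticulum to the Golgi, with 86.1 ± 3.01 FPKM in mutants and 93.7 ± 4.32 FPKM in controls, and Arf79F, with 75.4 ± 1.03 FPKM in mutants and 77.8 ± 3.36 FPKM in controls (SD, n = 3 each). Of 12 further genes of shut-off and its regulation, such as calmodulin, eye protein kinase C and retinophilin, 0 passed limma, while an unadjusted p below 0.05 was reached by 1 higher (Fbxl4) and 1 lower gene (rtp), with a median of -0.0029. Of 15 genes of endocytosis and turnover 0 passed limma. At an unadjusted p below 0.05, 3 were lower (Rab7, AP-2mu and shi), beside 1625 of all 8465 tested genes, so the count is near the background. The median of the 15 was -0.10 beside -0.066 over all genes tested. It was -0.025 under median-ratio scaling and -0.023 with the yolk protein covariate. Tsp42Ej, a tetraspanin gene, had 174 ± 5.93 FPKM in mutants and 204 ± 43.1 FPKM in controls. Rab7, the small GTPase of late endosomes, had 113 ± 3.49 FPKM in mutants and 138 ± 4.21 FPKM in controls (SD, n = 3 each), without overlap (-0.28 in log2, limma, adjusted p = 0.0747). Without control replicate 3 the lists of folding, further shut-off and endocytosis genes had 5 higher and 1 lower, 0 higher and 1 lower, and 0 higher and 3 lower, where 26.1% of all genes tested were called.

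**Figure D5:**
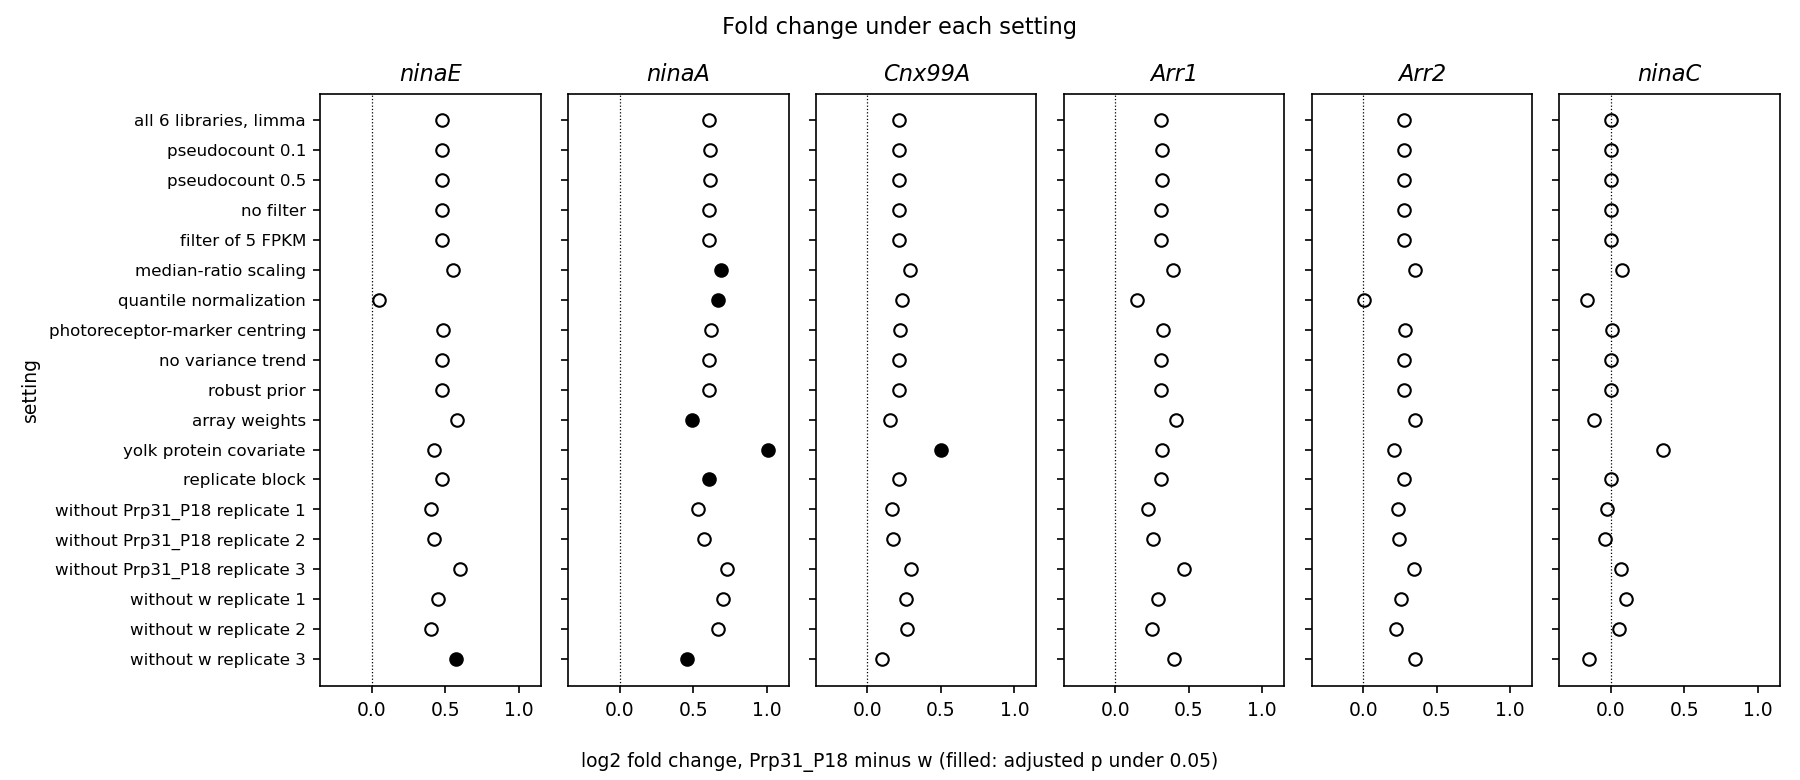
Log2 fold change (x axis, Prp31_P18 minus w) of 6 of the genes under each setting (rows, where array weights are the library weights), filled where the adjusted p of limma is under 0.05. ninaA is above 0 in all 19 settings shown and called in 6 of them, ninaE is called in 1, and ninaC lies on both sides of 0.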

How the data were processed

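The authors deposited FPKM per gene and library, each library in a column of its own. CASAVA 1.8, STAR 2.5.2b and build BDGP6 are named per the submitters' processing notes. The counting tool, annotation release, strand setting and filters were not given in the sources used here. The library kit kept strand, per the labels' protocols. Columns were matched to samples by title. Because FPKM are not counts, log2(FPKM + 1) was taken for the 8465 genes averaging 1 FPKM or more and fitted with limma 3.58.1 in R 4.3.3 with a variance trend, all 6 libraries and no block, with Benjamini-Hochberg adjustment over all genes. Ratios were compared with exact permutation tests (scipy 1.17.1). The step was tested on simulated data. Depth per library was estimated from single-exon genes with the annotation of the same assembly name (release 115, which held 11630 of the gene identifiers). Intervals and p-values of limma do not rest on the spread of a gene between libraries alone. That spread is drawn toward a trend of variance on abundance over all genes. The standard error was 0.38 with the trend and 0.13 without it for ninaE, and 0.29 and 0.10 for Arr2. FPKM depend on the library total, so the most abundant transcripts can shift all others.

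The members, lists, tests and alternatives were chosen with earlier results of these data known. Named genes were the 10 members, Prp31 and w, up to 4 called genes of each pathway list or else its 2 most abundant, the 2 most abundant of each marker list, and the 5 genes most like ninaE. CG15824, CG7011, PNPase and Pex7 were named for their overlap, and Rh3, Rh5, to, Cry, Fbxl4, rtp, AP-2mu and shi after their values were seen. Of 140 list entries 5 had no match in the table and were not analysed here, among them roX1 and roX2, the only male markers. Replicate numbers were not used as pairs, as the deviations of same-numbered libraries correlated at -0.011, 0.21 and 0.318 and the labels give the numbers no meaning. Alternatives were other pseudocounts, filters, scalings, variance models, a yolk protein covariate (the averaged log2 level of Yp1 to Yp3), the replicate block and each library left out. No reference sequence of these genes was used here.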

Additional observations from a re-analysis of the deposited data

How the results depend on the processing

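The number of all genes called, 960 with all libraries, was 629 with a filter of 5 FPKM, 448 with centring on photoreceptor markers, 491 with the yolk protein covariate, 3298 with library weights and between 406 and 2208 with 1 library left out, most without control replicate 3. The number of the 10 genes called, 0 with all libraries, was 1 under median-ratio scaling, quantile normalization, library weights and the replicate block, 2 with the yolk protein covariate, and 0 to 2 with 1 library left out. ninaA was called at 0.69, 0.67, 0.49, 0.61 and 1.01 in these settings, with the replicate block at an adjusted p of 0.0118, and Cnx99A at 0.50 with the covariate. The replicate numbers share no stated origin, and with the block 1142 genes were called in all. With 1 library left out ninaA lay between 0.46 and 0.73 and ninaE between 0.40 and 0.60. Gprk2 turned to 0.046 with the covariate, and ninaC to -0.16 under quantile normalization, -0.12 with library weights and -0.15 to 0.10 with 1 library left out. rdgC lay between -0.041 and 0.19 with 1 library left out. With 1 library left out the log2 ratio of ninaA to ninaE lay between -0.11 and 0.26, that of Arr1 to Arr2 between -0.016 and 0.12, and that of Gprk1 to Gprk2 between -0.062 and 0.064, beside -0.19 and -0.069 at pseudocounts of 0.1 and 0.5. The cause of these shifts was not tested. Rh2, Arr1 and Arr2 kept their direction in all settings and passed in none. Library weights called 14 genes of the folding list and 6 of the endocytosis list, where equal weights called 2 and 0 and library weights called 39% of all genes tested, and the folding list had 0 to 7 calls with 1 library left out. Gprk1 rests on the fewest reads of the 10 and is limited by depth.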
